A study of Mus musculus with 8 samples.

Results

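RANK-Fc was compared with control in the first passage of a transplanted mouse mammary carcinoma. The members were chosen by their treatment labels: 3 tumours of passage 1 labelled as RANK-Fc treated and the 2 passage 1 tumours labelled as control, 5 of the 16 tumours in the series. Every tumour, control or treated, was an orthotopic piece of an MMTV-PyMT mammary tumour in a wild-type mouse of the FVB strain. MMTV-PyMT tumours arise because the mouse mammary tumour virus promoter drives the polyoma virus middle T oncogene in mammary epithelium, so the tumour cells of all groups carry this transgene and the host mice do not. RANK-Fc was injected into the peritoneum at 10 mg/kg 3 times per week, and the labels call the passage 1 treatment adjuvant. The labels do not say what the controls were injected with, how long treatment lasted, or whether the pieces came from 1 donor tumour. Each tumour carries its own animal code, so p-values rest on spread between tumours. That spread was pooled within the groups of all 16 tumours and is not that of these 5 alone. Total RNA was taken from tumour fragments, labelled with Cy3 or Cy5 and hybridised to 8 Agilent arrays of 2 colours; control 1 and RANK-Fc 3 shared an array. RANK-Fc 1 and control 1 carried Cy5, and the other 3 tumours carried Cy3.

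RANK is a receptor of the tumour necrosis factor receptor family on mammary epithelial cells, myeloid precursors and other cells. Its ligand, RANKL, is made in the mammary gland by hormone-sensing luminal cells under progesterone, and acts on neighbouring epithelium through TRAF adaptors, the IKK kinases and NF-kB, driving alveolar progenitor growth in pregnancy. RANK-Fc, the extracellular part of RANK joined to an antibody Fc part, binds RANKL as a decoy, as the natural decoy receptor osteoprotegerin does. In the gland, alveolar cells at the end of this programme secrete caseins, whey proteins and fat globules under prolactin and STAT5.

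No gene passed the test for a difference between RANK-Fc and control tumours. Of 14131 genes tested, 0 (0%) had an adjusted p under 0.05 in either direction (limma, Benjamini-Hochberg), the smallest adjusted p was 0.542, and the next was 1.00. At an unadjusted limma p under 0.05, 104 genes (0.736%) were higher and 128 (0.906%) lower with RANK-Fc, 232 in all against 707 expected if no gene differed. In 954 genes (6.75%) all 3 RANK-Fc tumours lay above both controls, and in 1438 (10.2%) all lay below. The median difference over all genes was -0.01 on the log2 scale, with 6506 genes higher and 7625 lower, and the median standard error (SE) was 0.15. Only 17 genes differed by more than 1, a doubling of intensity, 14 of them higher and 3 lower with RANK-Fc. The statements that follow therefore give values and their errors; none of them is of a gene that passed the test. Values per tumour are normalised log2 intensities with the fitted dye effect removed. Differences (RANK-Fc minus control, ± SE) come from a fit of all 16 tumours, so they can depart slightly from the difference of the printed means. The SE draws on the spread within every group of the series, so it can be larger or smaller than the printed values show.

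**Figure D1:**
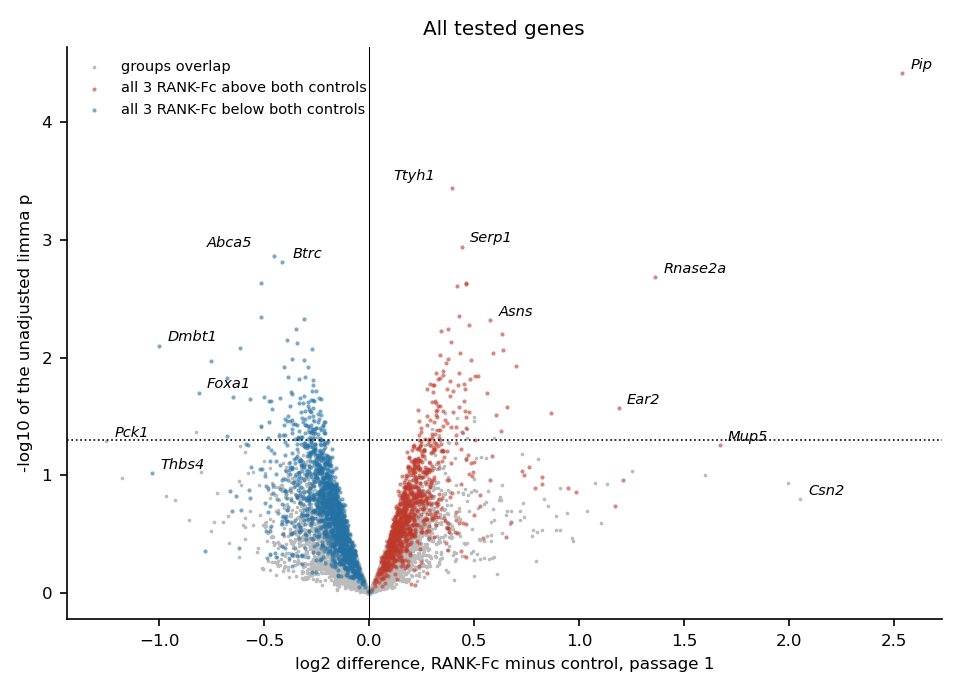
Log2 difference, RANK-Fc minus control in passage 1 (x axis), against minus log10 of the unadjusted limma p (y axis) for the 14131 tested genes; the dotted line marks a p of 0.05. Red points are genes with all 3 RANK-Fc tumours above both controls, blue points genes with all 3 below, grey points genes whose groups overlap; Pip stands apart at 2.54, and 17 genes lie beyond 1 in either direction.

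The tumours of a group were about as far from each other as from the other group. The 2 controls differed by a median of 0.16 per gene, with 176 genes more than 1 apart. The 3 pairs of RANK-Fc tumours differed by 0.14 to 0.15, and the 6 pairs of a control and a RANK-Fc tumour by 0.12 to 0.17. Gene by gene, the median standard deviation was 0.12 in both groups. In few of the 14131 tested genes did a single tumour stand far apart. RANK-Fc 2 stood alone above the other 4 by more than 1 in 36 genes, against 11 for control 1 and 4 to 6 for each of the other 3. Control 1 stood alone below in 8 genes, and each other tumour in 0 to 2. By any margin, RANK-Fc 2 was the highest of the 5 in 24.2% of genes and control 1 in 25.8%. Between 47.6% and 56.5% of spots were well above background in these 5 channels. All 13 listed luminal epithelial markers, among them Epcam and the keratin genes Krt8 and Krt18, were well above background in all 5 tumours, with a median difference of -0.03. These are bulk samples, in which fewer cells of a type and less RNA per cell cannot be told apart.

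Genes of the RANK pathway itself lay close to control. Tnfrsf11a, the gene of RANK, was measured at 11.86 and 11.82 in the control tumours and at 11.85, 11.62 and 12.01 in the RANK-Fc tumours. The groups overlapped, and the difference was 0.05 ± 0.19. Tnfrsf11b, which encodes osteoprotegerin, lay at 7.09 and 7.25 in controls and at 7.37, 7.69 and 7.34 with RANK-Fc. All 3 treated tumours were above both controls, by an average (0.25 ± 0.39) smaller than its error. The ligand gene Tnfsf11 was above background in 0 of 2 controls and 1 of 3 RANK-Fc tumours and was not tested. Of 20 measured genes among 22 listed for receptor, ligand, TRAF adaptors, IKK kinases and NF-kB subunits, 13 were higher and 7 lower, with a median of 0.04 (-0.02 without RANK-Fc 3) beside -0.01 over all genes. Ikbkg, the regulatory subunit of the IKK complex, was the other gene with no overlap upward (0.14 ± 0.12). Traf1, an adaptor that NF-kB itself induces, was the only member with no overlap downward. It lay at 9.97 and 9.44 in controls and at 8.94, 9.26 and 9.43 with RANK-Fc (-0.47 ± 0.33). RANK-Fc 3 lay almost level with control 2. The counts are 2 of 20 upward, beside 6.75% of all genes, and 1 of 20 downward, beside 10.2%.

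Genes known to be induced by NF-kB were more often lower than higher, each by little. Of 22 measured among 26, 16 were lower and 6 higher, the median was -0.08 (-0.05 without control 1 and -0.15 without control 2), and 0 had an unadjusted p under 0.05. In 5 genes, which is 5 of 22 beside 10.2% of all genes, the RANK-Fc tumours lay below both controls. They were the inhibitor of apoptosis gene Birc2 (-0.15 ± 0.11), the differentiation inhibitor Id2 (-0.30 ± 0.23), the adhesion molecule genes Vcam1 (-0.15 ± 0.37) and Icam1 (-0.15 ± 0.40), and Nfkbia (-0.08 ± 0.23), which encodes the inhibitor that NF-kB induces against itself. Id2, which mammary epithelium needs for alveolar growth, was measured at 13.85 and 13.72 in controls and at 13.67, 13.51 and 13.38 with RANK-Fc. The NF-kB consensus site was found in 250 bases before the start of 8 of the 16 targets that have a promoter in the RefSeq table, and in 5.4% of the tested genes; a match is a description of the sequence and not a site of binding.

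The gene with the smallest p was Pip, which encodes prolactin-inducible protein, a secreted product of mammary, salivary and lacrimal gland. Pip was measured at 10.22 and 11.94 in the control tumours and at 13.60, 14.19 and 13.21 in the RANK-Fc tumours. Every treated tumour was above both controls, and control 1 was the lowest of the 5. The difference was 2.54 ± 0.41 (limma, adjusted p = 0.542). Within the shared array, RANK-Fc 3 exceeded control 1 by 4.05 before the dye effect was removed. The size depended on the controls: it was 1.55 without control 1 and 3.49 without control 2, and in the latter case the adjusted p was 0.00513.

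The promoter of Pip is shown beside that of the beta-casein gene Csn2 because both are prolactin-responsive genes of secretory epithelium. The 250 bases before each gene start are given from RefSeq (GRCm38.p6), read along the gene's strand, at chr6:41847299-41847548 on the plus strand for Pip and chr5:87699426-87699675 on the minus strand for Csn2, with capitals for TTCNNNGAA, the STAT5 consensus, which reads the same on both strands.
Pip: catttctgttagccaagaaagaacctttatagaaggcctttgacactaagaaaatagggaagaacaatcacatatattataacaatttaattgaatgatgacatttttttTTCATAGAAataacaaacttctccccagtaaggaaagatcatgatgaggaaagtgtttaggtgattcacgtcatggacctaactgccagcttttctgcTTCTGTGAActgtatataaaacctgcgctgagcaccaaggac
Csn2: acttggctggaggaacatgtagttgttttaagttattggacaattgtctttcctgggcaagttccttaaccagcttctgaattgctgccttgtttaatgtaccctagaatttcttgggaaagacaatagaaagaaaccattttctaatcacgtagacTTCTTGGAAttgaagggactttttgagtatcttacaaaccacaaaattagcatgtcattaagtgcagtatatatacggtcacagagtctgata
Pip holds 2 matches and Csn2 holds 1. The motif occurs in 2306 of 32851 promoters of this length (7.02%) and in 7.39% of the tested genes. It occurs in 2 of the 10 secreted gland protein genes listed here and in 4 of the 20 milk protein genes with a promoter in the table.

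Secreted gland proteins other than Pip had smaller differences and mostly overlapped between the groups. All 10 measured genes of 11 listed had a positive difference, with a median of 0.56, and in 3 of 10 the groups did not overlap, beside 6.75% of all genes. Besides Pip these were Scgb2b2, a secretoglobin of exocrine glands, at 13.97 and 14.70 in controls and 14.81, 15.34 and 14.77 with RANK-Fc (0.67 ± 0.56), and the lipocalin gene Lcn10. Lcn10 was not well above background in either control and was above it in only 1 RANK-Fc tumour. It lay at 6.03 and 6.38 in controls and at 7.07, 6.44 and 6.45 with RANK-Fc, so most of these values are near background. Neither passage 1 group met the filter for Lcn10, and its probe was kept through a passage 2 group. Scgb1b27, a secretoglobin subunit of androgen-binding protein, lay at 10.81 and 13.50 in controls and at 12.58, 12.06 and 12.75 with RANK-Fc, so the 2 controls enclosed all treated tumours. The demilune cell proteins Dcpp1, Dcpp2 and Dcpp3, secreted by serous gland cells, were high in RANK-Fc 2 alone. Dcpp3 was measured at 13.09 and 14.27 in controls and at 12.86, 17.18 and 13.20 with RANK-Fc. As list means the tumours stood at 11.37 and 12.59 for control and 12.17, 13.56 and 12.28 for RANK-Fc, so the groups overlapped. The list median was 0.18 without control 1, 1.04 without control 2 and 0.27 without RANK-Fc 2. Dcpp and secretoglobin genes have close relatives, and how far a probe also reads those was not tested.

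Milk protein genes were mostly higher with RANK-Fc, but the caseins were high in only some treated tumours. Of 27 measured genes, 22 were higher and 5 lower, with a median of 0.32. Beta-casein, Csn2, was measured at 10.12 and 8.91 in controls and at 12.06, 7.65 and 13.24 with RANK-Fc. RANK-Fc 1 and 3 exceeded both controls and RANK-Fc 2 was the lowest of the 5, so the difference of 2.05 ± 1.37 was not distinguishable from the spread. Csn1s1 (1.60 ± 0.90) and Csn1s2a (2.00 ± 1.19), the genes of further caseins, also had their highest values in RANK-Fc 1 and 3, and RANK-Fc 2 lay within or below the range of the controls. The whey acidic protein gene Wap stood at 13.88 and 13.79 in controls and at 14.99, 13.15 and 14.78 with RANK-Fc, again high in RANK-Fc 1 and 3 and lowest in RANK-Fc 2. Wfdc18, a secreted protein of the whey acidic protein family, was instead above both controls in all 3 treated tumours. It lay at 17.27 and 16.54 in controls and at 17.50, 17.78 and 17.56 with RANK-Fc (0.65 ± 0.26). Within the shared array, RANK-Fc 3 minus control 1 was -0.13 for Wfdc18 before the dye effect of 0.42 was removed. Abcg2, the transporter that carries vitamins into milk, and Btn1a1, a butyrophilin of the milk fat globule, were the other members with no overlap upward. That makes 3 of 27 upward, beside 6.75% of all genes, and 2 of 27 had no overlap downward, beside 10.2%. The list median was 0.12 without RANK-Fc 1. Of the 10 genes of the prolactin and STAT5 axis, 4 were higher and 6 lower, with a median of -0.05 (0.08 without control 1 and 0.03 without RANK-Fc 2). Elf5, a transcription factor of alveolar cells, differed by 0.09 ± 0.19.

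**Figure D2:**
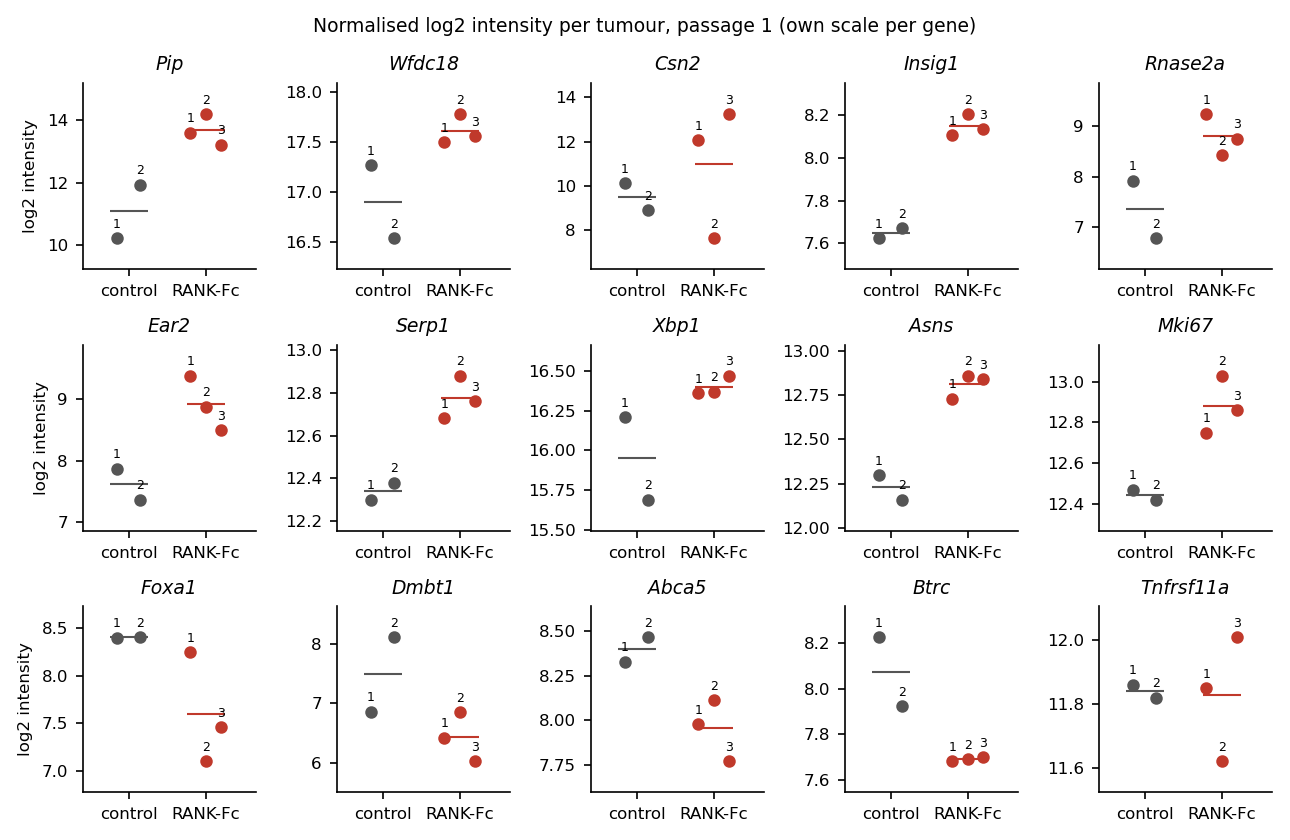
Normalised log2 intensity (y axis, with its own scale in each panel) of 15 genes in the 2 control tumours (grey) and the 3 RANK-Fc tumours (red) of passage 1; digits give the replicate and bars the group means. Pip and Rnase2a separate the groups, Csn2 is high in RANK-Fc 1 and 3 and lowest in RANK-Fc 2, and the groups overlap in Tnfrsf11a.

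Genes of lipid supply leaned the same way in smaller steps. In milk lipid synthesis, 20 of 25 measured genes were higher, the median was 0.21, and 6 of 25 had no overlap upward, beside 6.75% of all genes, and 0 downward. The median was 0.05 without RANK-Fc 1, 0.13 without RANK-Fc 3 and 0.12 without control 2. Insig1, which encodes a sterol sensor that holds SREBP in the endoplasmic reticulum and is itself an SREBP target, lay at 7.62 and 7.67 in controls and at 8.11, 8.21 and 8.13 with RANK-Fc (0.52 ± 0.18). The 2 groups were each tight, and the gap between them exceeded their spread. Scd2, a stearoyl-CoA desaturase, differed by 0.34 ± 0.12, and Acaca, which makes malonyl-CoA for fatty acid synthesis, by 0.37 ± 0.22. Agpat1 and Gpat4, acyltransferases of glycerolipid synthesis, and Slc25a1, the mitochondrial citrate carrier, were the others with no overlap. Dgat2, which completes triglycerides in fat and gland, went the other way (-0.80 ± 0.44), with its highest value of 11.49 in control 1.

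Of 21 measured genes of cholesterol synthesis and uptake among 22, 19 were higher and 2 lower, with a median of 0.19, and 7 of 21 had no overlap upward, beside 6.75% of all genes. Sqle, squalene epoxidase, was measured at 11.71 and 11.40 in controls and at 11.95, 11.86 and 12.21 with RANK-Fc (0.45 ± 0.18). Fdps, farnesyl diphosphate synthase, lay at 12.36 and 12.02 in controls and at 12.83, 12.49 and 12.70 with RANK-Fc (0.47 ± 0.24). For both genes control 2 was the lowest tumour. The synthesis genes Dhcr7, Fdft1, Cyp51 and Msmo1, with differences from 0.17 (Cyp51) to 0.28 (Dhcr7), also had no overlap. The list median was 0.05 without control 2, 0.34 without control 1 and 0.10 without RANK-Fc 1. In passage 2, whose tumours are other animals with their own controls, the median of the same list was 0.42 for current RANK-Fc.

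Serp1 had the third smallest p among genes higher in all treated tumours. It encodes a small protein that protects new membrane and secretory proteins in the endoplasmic reticulum, and lay at 12.30 and 12.38 in controls and at 12.68, 12.88 and 12.76 with RANK-Fc (0.44 ± 0.11). Xbp1, the transcription factor of the unfolded protein response, was measured at 16.21 and 15.69 in controls and at 16.36, 16.37 and 16.47 with RANK-Fc (0.43 ± 0.17). Its treated tumours lay close together, and the gap to control 1 was smaller than that between the controls. The folding genes Creld2 and Pdia6 and the translocon gene Ssr3 also had no overlap upward, which makes 5 of 28 listed genes, beside 6.75% of all genes. The list as a whole had 19 higher and 9 lower, with a median of 0.06 (0.13 without control 1 and 0.03 without RANK-Fc 3). The chaperone gene Hspa5 overlapped between the groups (0.21 ± 0.16).

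Asns, asparagine synthetase, a target of the transcription factor ATF4 in amino acid shortage, was measured at 12.30 and 12.16 in controls and at 12.73, 12.86 and 12.84 with RANK-Fc. The gap between the groups was several times the spread within them, and the difference was 0.58 ± 0.17. It stayed between 0.51 and 0.64 under all alternatives run. Its promoter is printed for the amino acid response element TGATGAAAC, in capitals, searched on both strands, which starts 23 bases before the gene start (RefSeq, GRCm38.p6, chr6:7693210-7693459, minus strand).
Asns: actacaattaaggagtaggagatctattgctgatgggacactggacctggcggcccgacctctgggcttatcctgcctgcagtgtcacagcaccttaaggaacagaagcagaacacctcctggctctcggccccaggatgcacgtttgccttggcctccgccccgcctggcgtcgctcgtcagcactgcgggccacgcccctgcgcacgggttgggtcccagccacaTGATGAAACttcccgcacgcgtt
This motif occurs in 70 of 32851 promoters (0.213%) and in 1 of the 20 genes of the ATF4 list that have a promoter in the table. Of 22 measured genes of that list among 23, 17 were higher and 5 lower, the median was 0.05 (0.07 to 0.10 with any 1 tumour left out), and 6 of 22 had no overlap upward, beside 6.75% of all genes. They were Asns, the mitochondrial folate enzyme gene Mthfd2 (0.24 ± 0.11), the transcription factor gene Atf5 (0.33 ± 0.18), Chac1, which degrades glutathione (0.39 ± 0.25), the cationic amino acid transporter gene Slc7a1 (0.16 ± 0.14) and the alanyl-tRNA synthetase gene Aars (0.16 ± 0.16). In Atf5 and Chac1 RANK-Fc 2 stood above the other treated tumours, at 13.51 and 9.49.

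Proliferation genes were higher in most cases and none was lower without overlap. Of 32 measured among 34, 26 were higher and 6 lower, with a median of 0.11 (0.17 without control 1 and 0.07 without control 2), and 9 of 32 had no overlap upward beside 6.75% of all genes. Mki67, the gene of the cycling-cell antigen Ki-67, was measured at 12.47 and 12.42 in controls and at 12.75, 13.03 and 12.86 with RANK-Fc. The difference was 0.43 ± 0.15, and 0.33 with its other probe. Ccne1, cyclin E, lay at 10.02 and 9.99 in controls and at 10.36, 10.30 and 10.27 with RANK-Fc (0.29 ± 0.13). Its other probe gave 0.11 ± 0.11. Top2a (0.30 ± 0.18) and the mitotic kinase gene Cdk1 (0.30 ± 0.21) followed. Haspin, a mitotic histone kinase outside the list, lay at 8.04 and 8.07 in controls and at 8.59, 8.53 and 8.43 with RANK-Fc (0.43 ± 0.12). The passage 2 median of the proliferation list was -0.04 for current RANK-Fc. Among 18 apoptosis regulators, 6 were higher and 12 lower, and the survival gene Bcl2 lay below both controls in every treated tumour (-0.25 ± 0.13). No overlap downward held for 2 of these 18, beside 10.2% of all genes.

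Luminal lineage genes without overlap were mostly lower with RANK-Fc. Foxa1, the pioneer factor that opens chromatin for the oestrogen receptor in hormone-sensing cells, was measured at 8.40 and 8.41 in controls and at 8.25, 7.10 and 7.46 with RANK-Fc. RANK-Fc 1 lay close to the controls and the other treated tumours well below (-0.81 ± 0.30). Cited1, a co-regulator of the same cells, overlapped (-0.62 ± 0.29), the oestrogen receptor gene Esr1 differed by -0.15 ± 0.24, and Tbx3, a transcription factor of these cells, was above both controls in all treated tumours (0.32 ± 0.22). Of 9 hormone-sensing genes, 3 were higher and 6 lower, with a median of -0.11 that turned to 0.09 without control 1. Among 9 measured luminal progenitor genes, 4 were higher and 5 lower, with a median of -0.02 that ran from -0.34 without control 1 to 0.10 without RANK-Fc 1. In 3 of 9 the groups did not overlap, all downward, beside 10.2% of all genes. These were the integrin gene Itgb3 (-0.48 ± 0.30, and -0.11 with its other probe), the receptor kinase gene Kit (-0.34 ± 0.23) and Cd14 (-0.31 ± 0.22). Tfap2b, the AP-2 factor gene, stood at 11.66 and 11.71 in controls and at 11.35, 11.44 and 11.35 with RANK-Fc (-0.47 ± 0.63). The 14 basal genes were split 7 and 7, with a median of 0.04 that was 0.25 without control 1 and -0.28 without control 2.

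**Figure D3:**
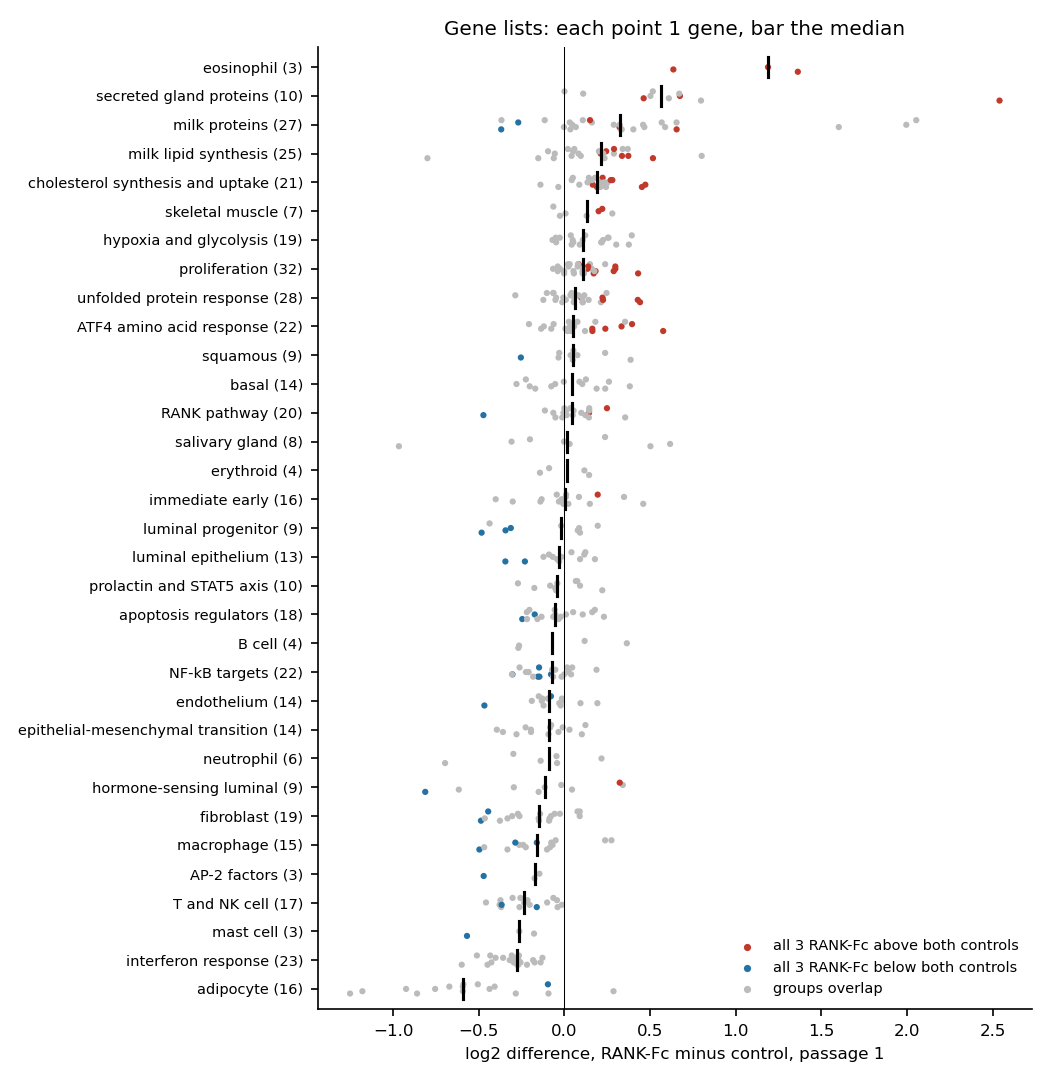
Log2 difference, RANK-Fc minus control in passage 1 (x axis), of each measured gene of 33 gene lists (rows, number of genes in brackets, ordered by median); black bars are medians. Red points are genes with all 3 RANK-Fc tumours above both controls, blue points genes with all 3 below, grey points genes whose groups overlap; medians run from 1.19 for the 3 measured eosinophil genes to -0.59 for the adipocyte genes.

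Ribonuclease genes that mark eosinophils were higher in every treated tumour. Rnase2a, an eosinophil-associated ribonuclease, was measured at 7.92 and 6.77 in controls and at 9.25, 8.43 and 8.75 with RANK-Fc. The lowest treated tumour was above the highest control, and the controls were far apart themselves (1.36 ± 0.35). Ear2 lay at 7.87 and 7.37 in controls and at 9.38, 8.88 and 8.50 with RANK-Fc (1.19 ± 0.47). Ear1, close to background in controls at 6.49 and 6.51, lay at 7.48, 7.05 and 6.95 with RANK-Fc (0.64 ± 0.20). All 3 measured genes of the list of 9 thus had no overlap upward, beside 6.75% of all genes. RANK-Fc 1 was the highest tumour in each. The defining eosinophil genes Epx, Prg2 and Ccr3, for the granule peroxidase, the major basic protein and the eotaxin receptor, were above background in 0 of 5 tumours. Il5ra and Ear6 were above background in 1 control and 2 RANK-Fc tumours each and were not tested. The size for Rnase2a fell to 0.72 without control 2, and within the shared array RANK-Fc 3 exceeded control 1 by 0.43 before the dye effect was removed. The genes of these ribonucleases lie on chromosome 14, with Rnase2a apart from Ear1 and Ear2, and the ribonucleases are also made by other myeloid cells. Arginase, Arg1, an enzyme of alternatively activated macrophages, was likewise above both controls, at 11.45 and 11.67 against 11.95, 13.17 and 12.24 (0.86 ± 0.35).

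The 120 bases before the start of the 3 ribonuclease genes are printed to show how alike these family members are (RefSeq, GRCm38.p6; Rnase2a at chr14:51256113-51256232 on the minus strand, Ear2 at chr14:44102534-44102653 on the plus strand, Ear1 at chr14:43819640-43819759 on the minus strand; no part is capitalised).
Rnase2a: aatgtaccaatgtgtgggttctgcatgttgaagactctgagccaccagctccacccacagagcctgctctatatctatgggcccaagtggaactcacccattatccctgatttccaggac
Ear2: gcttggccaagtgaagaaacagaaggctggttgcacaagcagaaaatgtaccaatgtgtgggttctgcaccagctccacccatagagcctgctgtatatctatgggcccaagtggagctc
Ear1: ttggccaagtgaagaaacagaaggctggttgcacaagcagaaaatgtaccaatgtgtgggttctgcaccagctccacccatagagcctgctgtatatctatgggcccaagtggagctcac
Over 250 bases, Ear2 and Ear1 were identical at 97.6% of aligned positions, and Rnase2a matched Ear2 at 61.6% and Ear1 at 62.7%. The promoters of Pip and Csn2 matched at 49.8% by the same alignment, so only Ear2 and Ear1 were close here. Probes read transcripts and not these bases, and whether a probe for 1 of these genes also reads another was not tested.

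Other stroma and immune genes were mostly lower with RANK-Fc, and control 1 set much of this. Adipocyte genes had a median of -0.59, with 15 of 16 measured genes lower. Pck1, which makes glycerol for fat storage, lay at 9.41 and 7.49 in controls and at 7.94, 7.02 and 7.10 with RANK-Fc (-1.25 ± 0.58), so control 2 lay among the treated tumours. Control 1 was the highest tumour in 14 of 16 adipocyte genes, and the median was 0.29 without control 1 and -1.50 without control 2. Interferon response genes were lower in 23 of 23 cases (median -0.28), and control 1 was the highest tumour in 23 of 23. The list means were 11.55 and 10.34 for control and 10.51, 10.26 and 10.97 for RANK-Fc, and the median was 0.46 without control 1. T and NK cell genes were lower in 17 of 17 (median -0.23, and 0.003 without control 1). These list directions therefore rest on 1 control tumour; whether adipose or lymphoid tissue in that fragment plays a part was not tested.

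Macrophage genes did not rest on control 1 in the same way. Of 15 measured, 13 were lower, the median was -0.16, and it was -0.21 without control 1 and -0.06 without control 2. From array log ratios alone the median turned to 0.03. Tyrobp, a signalling adaptor of myeloid cells, was measured at 12.18 and 12.12 in controls and at 11.34, 11.49 and 11.89 with RANK-Fc (-0.50 ± 0.28). Csf1r, the receptor for macrophage colony-stimulating factor, differed by -0.29 ± 0.26, and like Tyrobp and Adgre1 had no overlap. That makes 3 of 15 downward, beside 10.2% of all genes. The mast cell protease gene Cpa3 lay at 6.75 and 7.29 in controls and at 6.33, 6.58 and 6.27 with RANK-Fc (-0.57 ± 0.22), with 1 of 3 treated tumours above background. Fibroblast genes were lower in 16 of 19 (median -0.15, from -0.08 without control 1 to -0.28 without RANK-Fc 1). Endothelial genes were lower in 12 of 14 (median -0.09), but their median was 0.09 without control 1 and -0.21 without control 2. Skeletal muscle genes were highest in RANK-Fc 2 in 5 of 7 measured cases.

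**Figure D4:**
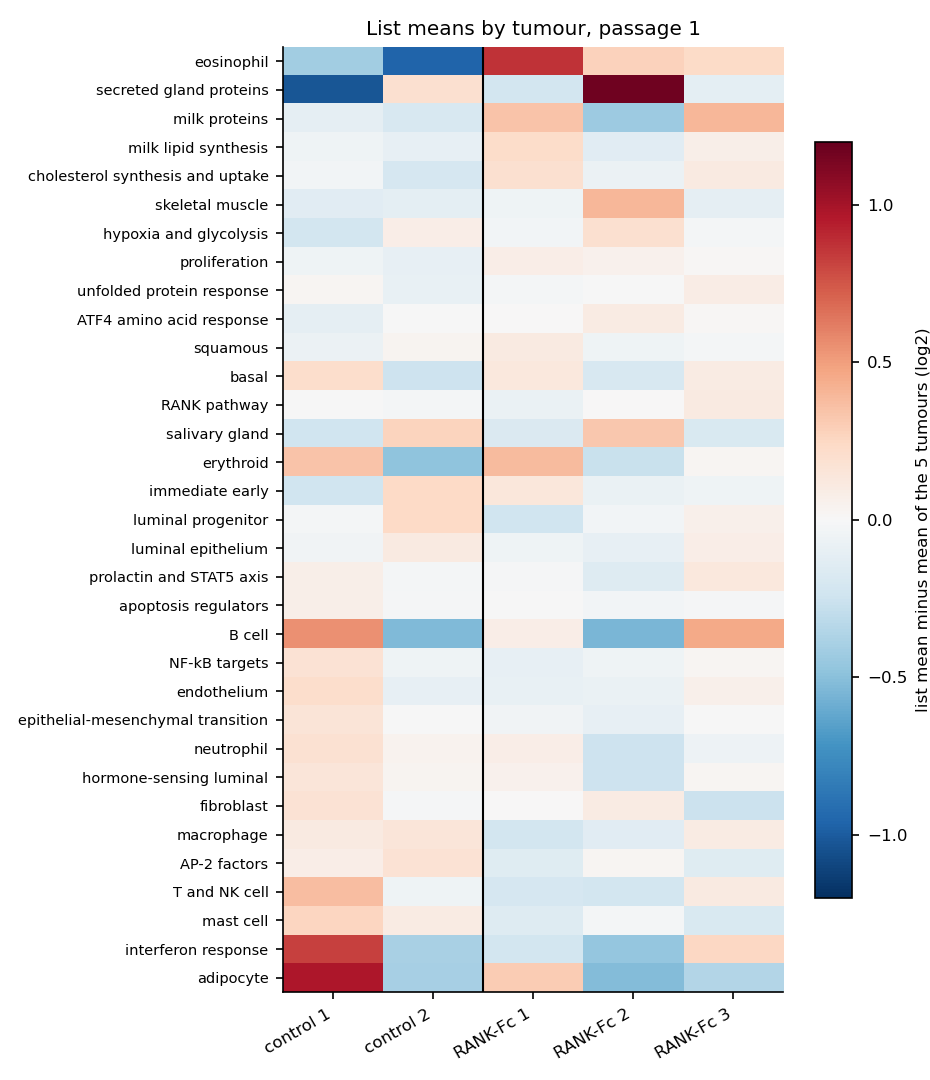
Mean normalised log2 intensity of each gene list in each of the 5 passage 1 tumours, minus the mean of the 5 (colour scale, log2). The adipocyte and interferon lists are highest in control 1, the secreted gland proteins in RANK-Fc 2, and the eosinophil genes are above their mean in all 3 RANK-Fc tumours.

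Beyond the lists, the genes with the smallest p had small, even differences. Ttyh1, a membrane protein of the tweety family, lay at 6.49 and 6.55 in controls and at 6.88, 6.90 and 6.93 with RANK-Fc (0.40 ± 0.08); 1 of 2 controls was above background. The cell adhesion gene Cadm4 was measured at 8.89 and 9.02 in controls and at 9.60, 9.56 and 9.21 with RANK-Fc (0.46 ± 0.12). In the zinc transporter gene Slc30a6 the controls were 8.31 and 8.41 and the treated tumours 8.71, 8.70 and 8.74 (0.34 ± 0.10). Ttyh1 and Slc30a6 had narrow spread in both groups, while RANK-Fc 3 lay nearer to the controls than to the other treated tumours in Cadm4. Gpd1l, a glycerol-3-phosphate dehydrogenase relative, Tacc2, a centrosomal coiled-coil protein, and Rab11fip4, a regulator of endosome recycling, had differences of 0.42 ± 0.11, 0.48 ± 0.14 and 0.38 ± 0.11. Ppfia3, a liprin of presynaptic scaffolds, differed by 0.46 ± 0.12 with its brightest probe and by -0.004 with its other probe.

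On the lower side, the lipid transporter gene Abca5 lay at 8.33 and 8.46 in controls and at 7.98, 8.11 and 7.77 with RANK-Fc (-0.45 ± 0.11), with -0.31 from its other probe. Btrc encodes the ubiquitin ligase subunit that marks IkB and beta-catenin for destruction. It lay at 8.23 and 7.92 in controls and at 7.68, 7.69 and 7.70 with RANK-Fc (-0.41 ± 0.10), and at -0.25 without control 1. Its treated tumours were nearly identical, and control 1 was the highest. Fxyd2, a regulator of the sodium pump, lay at 8.29 and 8.36 in controls and at 7.93, 7.75 and 7.73 with RANK-Fc (-0.51 ± 0.15, and -0.54 with its other probe). Trdmt1, a tRNA methyltransferase, stood at 9.73 and 9.75 in controls and at 9.38, 9.45 and 9.42 with RANK-Fc (-0.35 ± 0.11). Both genes had tight groups with a clear gap. Fam169b (-0.51 ± 0.13), Osgin2 (-0.61 ± 0.20), the repair gene Ercc6 (-0.27 ± 0.09), Stard3nl (-0.37 ± 0.12) and the transcript 1700097N02Rik (-0.35 ± 0.10) completed the measured ones. Hoxb5 (-0.39 ± 0.12), R3hdml (-0.31 ± 0.09) and Dmbt1, a secreted mucosal scavenger protein (-0.999 ± 0.32), were above background in 1 of 3 treated tumours each. With processed signals their differences were -1.73, -1.37 and -2.86, and Hoxb5 was -0.19 without control 1. Dmbt1 was 8.11 in control 2 and 6.86 in control 1, and its difference was -0.37 without control 2 and -1.66 without control 1.

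Among the largest differences without overlap, several came from 1 tumour. The major urinary protein genes Mup5 (1.67 ± 0.79) and Mup17 (1.17 ± 0.83), which encode pheromone carriers of liver and gland, reached 11.21 and 11.19 in RANK-Fc 2, while every other tumour lay at or below 8.32. They were 0.73 and 0.33 without RANK-Fc 2. Rgs2, a brake on G protein signalling, lay at 14.82 in RANK-Fc 2 and between 11.89 and 12.10 in the other 4 tumours, and its difference was 0.20 without RANK-Fc 2. The natriuretic peptide clearance receptor gene Npr3 was instead high in control 1, at 7.77, against 6.56 in control 2 and 6.34, 6.48 and 6.49 with RANK-Fc, and its difference of -0.75 ± 0.25 was -0.04 without control 1. It was above background in 1 of 3 treated tumours, and its difference was -1.60 with processed signals. Serpina1a, a liver-type protease inhibitor, lay at 9.26 in control 1 and 8.48 in control 2, against 8.20, 7.99 and 8.31, and its -0.68 ± 0.31 became -0.18 without control 1. Bpifb1, a secreted lipid-binding protein of airway and gland, had an error larger than its difference (-0.78 ± 0.99), which was -1.34 without control 1, -0.25 without control 2 and -0.04 from array log ratios alone. Thbs4, a matrix thrombospondin, lay at 10.24 and 9.83 in controls and at 9.30, 9.11 and 9.11 with RANK-Fc (-1.03 ± 0.57). The cold-inducible RNA-binding protein gene Cirbp lay at 11.57 and 11.14 in controls and at 10.71, 11.02 and 10.65 with RANK-Fc (-0.68 ± 0.24, and -0.44 without control 1). Nqo1, a quinone reductase of the NRF2 response, lay at 9.88 and 9.96 against 9.25, 9.09 and 9.43 (-0.66 ± 0.42), and the collagen gene Col25a1 at 9.004 and 8.70 against 10.19, 10.77 and 9.29 (0.99 ± 0.62). Col25a1 was 0.49 and 0.63 with its other probes and 0.12 from array log ratios alone.

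The passage 1 difference was set beside that of current RANK-Fc in passage 2, measured in other tumours against their own 2 controls. For the difference between the passages, 0 of 14131 genes (0%) passed (limma, smallest adjusted p = 0.999), and 254 (1.80%) had an unadjusted p under 0.05. Pip differed by 2.54 ± 0.41 in passage 1 and 0.61 ± 0.41 in passage 2, which is a gap of 1.93 ± 0.57 (limma, adjusted p = 0.9995). Passage 2 also holds tumours with RANK-Fc in both passages, set against tumours with prior RANK-Fc alone. There Pip differed by 1.73 ± 0.37, with a gap to passage 1 of 0.81 ± 0.57. Armcx3, a mitochondrial outer membrane protein, had the smallest p for the gap between passage 1 and current RANK-Fc against control in passage 2. It differed by -0.13 ± 0.17 in passage 1 and 1.08 ± 0.17 in passage 2. Hcar2, the receptor for niacin and ketone bodies, differed by -0.50 ± 0.19 and 0.55 ± 0.19, and the small heat shock protein gene Cryab by -0.36 ± 0.18 and 0.52 ± 0.18. The receptor kinase gene Fgfr3 differed by -0.07 ± 0.31 in passage 1 and by -1.31 ± 0.31 in passage 2. Asns (0.58 and 0.35), Insig1 (0.52 and 0.43), Sqle (0.45 and 0.60), Arg1 (0.86 and 0.75) and Cirbp (-0.68 and -0.74) had like values in passage 1 and passage 2, with gaps smaller than their errors. Other named genes had unlike values, small or reversed in passage 2. Most were named for their passage 1 values, so smaller values in other tumours are expected from the choice alone. Among them were Ttyh1 (0.40 and 0.07), Cadm4 (0.46 and 0.002), Slc30a6 (0.34 and -0.14) and Tacc2 (0.48 and -0.13). Btrc (-0.41 and 0.10), Fxyd2 (-0.51 and 0.16) and Fam169b (-0.51 and 0.23) had the reverse sign. With RANK-Fc in both passages against prior RANK-Fc alone, Fam169b was again lower (-0.46 ± 0.12), and Btrc (0.03 ± 0.09) and Fxyd2 (-0.01 ± 0.13) were near 0. Mki67 (0.43 and -0.05), Xbp1 (0.43 and 0.003) and Wfdc18 (0.65 and 0.001) differed little between current RANK-Fc and control in passage 2. With RANK-Fc in both passages against prior RANK-Fc alone, Xbp1 (0.65 ± 0.15) and Wfdc18 (0.63 ± 0.23) were higher, and Mki67 differed by 0.12 ± 0.13. List medians for interferon response were -0.28 in passage 1 and 1.02 in passage 2, and for fibroblast genes -0.15 and 0.68. Against RANK-Fc after prior RANK-Fc in passage 2, 0 genes (0%) passed and 519 (3.67%) had an unadjusted p under 0.05.

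**Figure D5:**
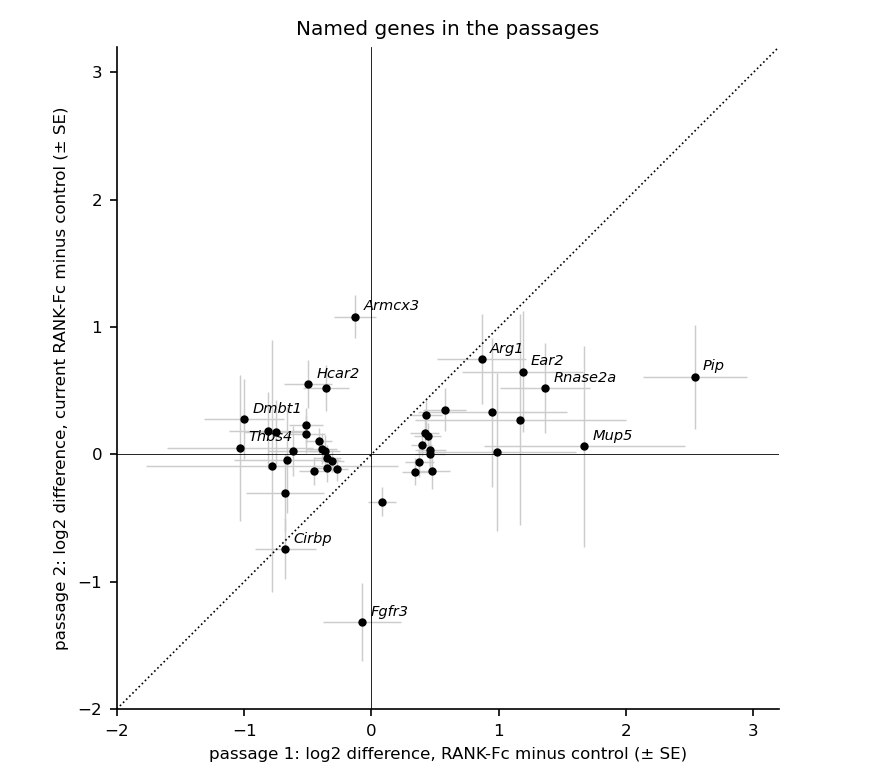
Log2 difference of RANK-Fc against control in passage 1 (x axis) and of current RANK-Fc against control in passage 2 (y axis) for genes named by the smallest p, the largest difference or the difference between passages; grey bars are standard errors and the dotted line marks equal values. Pip lies at 2.54 and 0.61, and Arg1 and Cirbp lie near the line. Armcx3 and Fgfr3, plotted for the difference between passages, lie near 0 in passage 1 and near 1.1 and -1.3 in passage 2. Neither passed the test in passage 2 (limma, adjusted p = 0.269 and 0.9999).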

How the data were processed

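Per the submitters' processing notes, spots were quantified in version 10.7.3.1 of Agilent Feature Extraction. The deposited files give median spot and local background intensity in both colours, per the file headers, on a linear scale. Also given are processed intensity and the log10 ratio of red over green, per the file headers, with other quality marks coded 0 or 1. A deposited table with 8 columns whose names match no label was not used here. Arrays held 62976 spots and 55681 distinct probes; 28026 probes were named through RefSeq accessions, and GRCm38.p6 served for names and promoters.

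Median intensities were background corrected (normexp, offset 50), normalised by loess within and Aquantile between arrays, with 239 to 337 outlier spots per array set to missing. No spot (0) was saturated. The log10 ratio correlated with red over green at r = 0.67 to 0.854. Probes were kept where all tumours of any of the 6 groups were well above background, and each gene was read from its brightest kept probe; 25.8% of genes had several. limma 3.58.1 in R 4.3.3 with statmod 1.5.0 fitted 6 group means and a dye term over 16 channels, with the array as block. The planned separate-channel function does not take missing values, so the equivalent lmFit with block was used. The intraspot correlation of 0.416 was corrected to 0.227 by simulation; residual degrees of freedom were 9 and prior degrees of freedom 3.43. eBayes and Benjamini-Hochberg adjustment over 14131 genes followed, at a threshold of 0.05. The fit was tested on simulated data. The packages jsonlite 2.0.0 and data.table (version 1.17.8) read the files, and Python 3.11.15 with matplotlib 3.10.9 drew the figures.

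The gene lists and the members were chosen with earlier results of these data known. Named genes were, by rule, the 12 higher and 12 lower with the smallest p and the 8 each way with the largest difference, among genes without overlap and above background in every tumour of the higher group; the 3 with the smallest p in each of 33 lists; the RANK receptor, ligand and decoy genes; and the 5 each way for the passage difference. Other members without overlap, and the promoters printed, were chosen after their values were seen. Alternatives covered background, normalisation, filter, dye, correlation, probes, variance and leaving out each tumour.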

Additional observations from a re-analysis of the deposited data

How the results depend on the processing

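The number of genes passing was 0 in each of the 13 other settings and 0 to 4 when 1 tumour was left out. The 4 came without control 2: Pip (3.49), Npr3 (-1.44), Atp1a4 (-1.10) and Hoxb4 (-0.94). The count of genes with an unadjusted p under 0.05, 232 in the reported fit, was 44 with median centring, 442 with no filter, 447 with the passage 1 tumours alone, 372 with the uncorrected intraspot correlation and 151 with a correlation of 0, and 176 to 677 when 1 tumour was left out. The count of genes without overlap, 2392 in the reported fit, was 942 with median centring, 3977 with no filter and 3875 with the passage 1 tumours alone; without removing the dye effect it was also 2392, of which 1685 genes were shared. The passage differences gave 0 to 1 genes, the 1 without control 2. None of the 37 genes named for the smallest p or the largest difference changed sign under the alternatives run. No scaling moved the median of all genes by more than 0.1. No paired analysis was possible because the replicate numbers were given in accession order and pair no tumours. Control and RANK-Fc tumours number 2 and 3, and 1 of the 5 can decide a value. Signal over background limits Lcn10, Hoxb5, R3hdml, Dmbt1, Npr3 and Cpa3, among others.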
